A study of Mus musculus with 10 samples.

Results

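The 38 genes described here encode heat shock proteins, chaperones of the endoplasmic reticulum (ER) and members of the ATF4 arm of the integrated stress response. They were taken by gene symbol from a count table of 15883 genes, and all 38 were found in it. They were split by role into 11 cytosolic chaperones and co-chaperones, 5 small heat shock proteins, 2 subunits of the mitochondrial chaperonin, 8 ER chaperones and genes of the unfolded protein response, and 12 genes of the ATF4 arm. RNA came from a hindlimb muscle, the biceps femoris, in 5 samples from Zfp407 transgenic mice and 5 from wild-type mice. All were C57BL/6J males aged 5 weeks, on normal chow, and had been without food for 16 hours. The transgenic mice overexpress Zfp407, a zinc finger protein, and the promoter that drives the transgene is not given in the sources used here. The comparison bears on how overexpression of Zfp407 changes muscle transcripts.

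Cells meet unfolded protein with separate programmes in separate compartments. In the cytosol, heat shock factor 1 binds heat shock elements in promoters and turns on inducible members of the HSP70, HSP90, HSP110 and HSP40 families. In the ER, the sensors ATF6, IRE1 and PERK respond to unfolded client proteins. ATF6 and the IRE1 product XBP1 raise the chaperones and the machinery that clears misfolded protein from the ER. PERK and related kinases phosphorylate eIF2 alpha, which favours translation of ATF4, and ATF4 in turn drives genes of amino acid synthesis, one-carbon metabolism and stress regulation. In muscle, small heat shock proteins bind sarcomere and intermediate filament proteins, and Cryab and Hspb6 are known to be more abundant in slow than in fast fibres of rodents.

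Each library held 15162400 to 19047834 counts in the transgenic group and 13530367 to 17814900 in wild type. Levels are in CPM, counts scaled to the TMM-adjusted library total. Since the columns name a group and a number but no mouse, each library goes by those. Zfp407 itself had 317 to 616 CPM in transgenic muscle, against 21.0 to 25.7 CPM in wild-type muscle (adjusted p = 8.15e-08 by edgeR). The 10 skeletal muscle fibre markers took 7.78% to 11.5% of the counts in transgenic libraries and 6.58% to 10.2% in wild-type libraries, with none called. Transcripts of 24 hepatocyte marker genes took 0.0620% to 0.697% of transgenic libraries and 0.0208% to 0.0356% of wild-type libraries, and 22 of the 24 were called higher. Of 10 leukocyte markers tested, 3 were called higher, Cd74, H2-Aa and H2-Ab1. Of all counts, 9.62% to 17.3% in transgenic libraries and 14.3% to 33.9% in wild-type libraries fell on 3 rows, Lars2, Gm15564 and Gm15662. In bulk tissue, a change in the share of a cell type and a change in RNA per cell cannot be told apart.

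Of the 38 genes, 37 passed the low-count filter, and Hspa1b did not. A single gene, Sdf2l1, rose in the transgenic group past an adjusted p of 0.05 in edgeR's quasi-likelihood test, and none fell. That is 2.70% of the 37, against 5.33% of the 13338 genes tested, of which 4.28% were called higher and 1.05% lower. An unadjusted p under 0.05 was reached by 4 of the 37, Sdf2l1, Hspb6, Cryab and Atf3, against 18.1% of all genes. Transgenic and wild-type libraries were fully apart for 1 of the 37, again Sdf2l1, against 8.04% of all genes. The log2 fold changes, transgenic over wild type, ran from -0.26 to 1.41 with a median of 0.06, and 22 were positive and 15 negative. The median over all genes tested was 0.003. The 95% interval of the fold change lay within 2-fold in both directions for 30 of the 37 genes, and within 1.5-fold for 20.

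**Figure D1:**
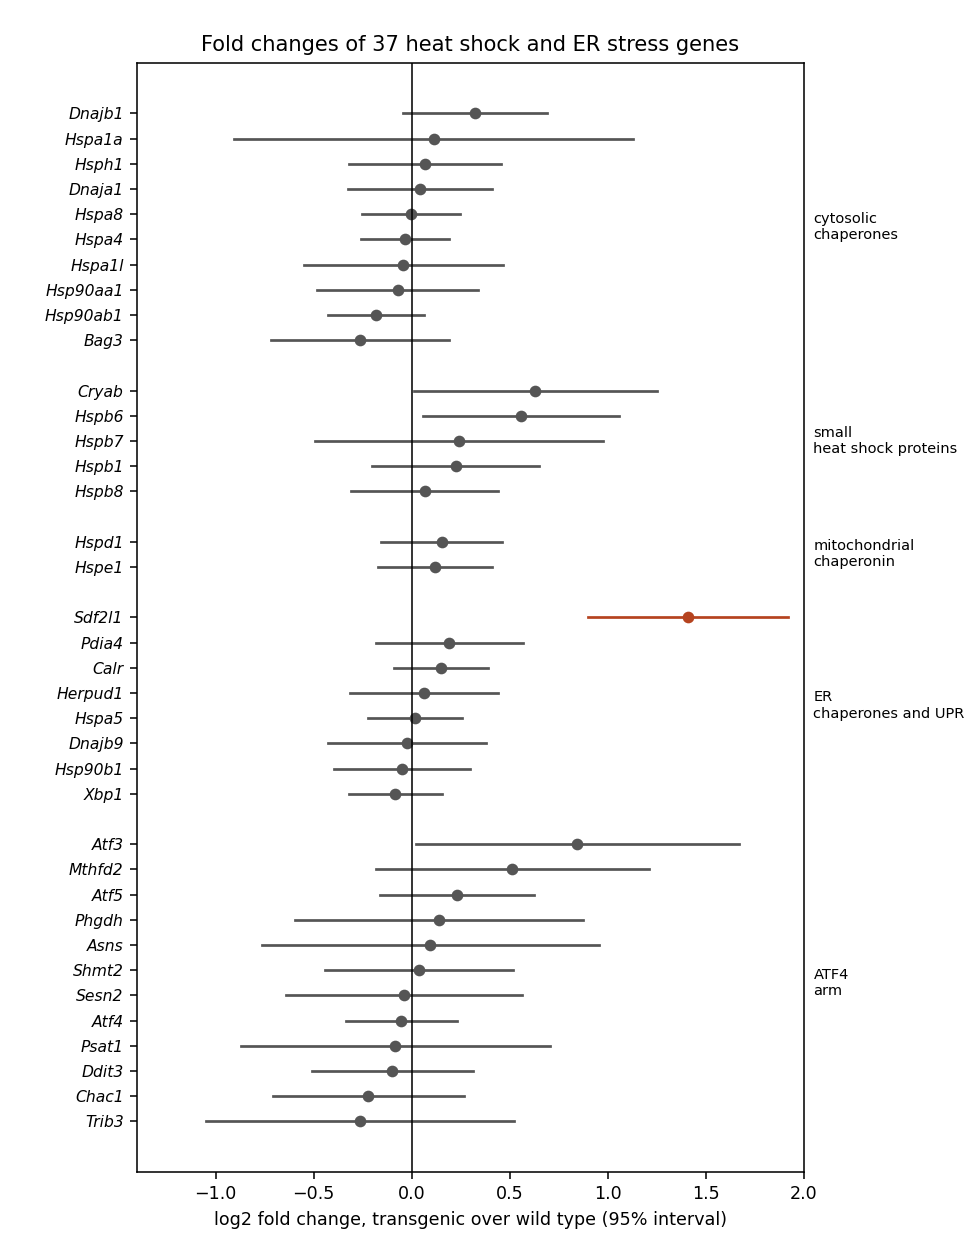
Log2 fold change, transgenic over wild type, of the 37 genes tested, grouped by role, with bars for the unadjusted 95% interval of edgeR's quasi-likelihood fit (n = 5 libraries per group). Sdf2l1, at 1.41, is the gene past an adjusted p of 0.05, and the widest interval is that of Hspa1a.

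Promoter windows of 4 genes are shown because the elements through which the 3 programmes are known to act can be looked for in them. Each covers 250 bases before to 50 bases after an annotated start, read 5′ to 3′ on the gene's strand, from RefSeq on GRCm38.p6. They belong to Sdf2l1 (chr16:17132334-17132633, minus strand), the gene that rose, and to Hspa5 (chr2:34771840-34772139, plus strand), the ER chaperone BiP that did not. The others are Hspa1a (chr17:34972107-34972406, minus strand), the inducible HSP70, and Asns (chr6:7693160-7693459, minus strand), a textbook target of ATF4. Capitals mark CCAAT boxes in Sdf2l1 and Hspa5, the ER stress element in Hspa5, the heat shock element in Hspa1a, and an overlapping ATF4 element and heat shock element in Asns.
Sdf2l1: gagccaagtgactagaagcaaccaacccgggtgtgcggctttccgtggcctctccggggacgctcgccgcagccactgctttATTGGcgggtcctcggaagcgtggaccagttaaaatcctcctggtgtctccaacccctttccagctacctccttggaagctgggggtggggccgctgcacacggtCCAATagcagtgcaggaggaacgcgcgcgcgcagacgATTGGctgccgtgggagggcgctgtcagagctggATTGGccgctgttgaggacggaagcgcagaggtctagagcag
Hspa5: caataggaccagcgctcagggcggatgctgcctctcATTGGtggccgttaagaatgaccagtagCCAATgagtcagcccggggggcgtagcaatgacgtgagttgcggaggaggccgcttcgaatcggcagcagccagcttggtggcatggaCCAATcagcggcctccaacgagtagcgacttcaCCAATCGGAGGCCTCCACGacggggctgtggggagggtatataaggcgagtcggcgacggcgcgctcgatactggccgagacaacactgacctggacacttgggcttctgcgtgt
Hspa1a: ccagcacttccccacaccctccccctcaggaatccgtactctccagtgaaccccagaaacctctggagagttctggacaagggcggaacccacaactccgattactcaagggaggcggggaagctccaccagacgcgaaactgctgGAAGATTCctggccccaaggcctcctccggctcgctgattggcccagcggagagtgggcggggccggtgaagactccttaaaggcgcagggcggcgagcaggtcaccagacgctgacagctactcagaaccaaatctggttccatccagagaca
Asns: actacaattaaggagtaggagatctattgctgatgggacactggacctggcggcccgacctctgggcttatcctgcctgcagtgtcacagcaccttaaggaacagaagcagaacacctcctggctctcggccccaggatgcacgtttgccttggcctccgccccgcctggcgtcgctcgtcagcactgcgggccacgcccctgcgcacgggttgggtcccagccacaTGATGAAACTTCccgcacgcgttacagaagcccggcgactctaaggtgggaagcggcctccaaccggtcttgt

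The searched letters were GAANNTTC for the heat shock element, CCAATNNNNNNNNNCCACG for the ER stress element, TGATGNAA for the ATF4 element and CCAAT for the CCAAT box, each on both strands. A CCAAT box is the first part of every ER stress element, so those matches overlap. Hspa5 held an ER stress element 65 to 47 bases before the start. Sdf2l1 held none of the 3 longer motifs and had 4 CCAAT boxes in its window, as many as Hspa5. Hspa1a held a heat shock element 104 to 97 bases before the start. In Asns the ATF4 element lay 23 to 16 bases and the heat shock element 19 to 12 bases before the start. A match is a run of letters and not a measured binding site.

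RefSeq windows were matched for 34 of the 38 genes, 42 windows in all, and not for Cryab, Hsp90aa1, Hsp90ab1 and Hspa8. The ER stress element was found in Hspa5, Hsp90b1 and Calr, which is 3 of 8 ER genes, and in none of the other matched genes, against 0.137% of 27025 genes with a window. This element is known from ER chaperone genes such as these, so its share describes the windows and is no independent result. The heat shock element was found in 11 of the 34, against 9.04% of all genes. These were 5 of 8 cytosolic chaperones (Hspa1a, Hspa1b, Hsph1, Dnaja1 and Bag3), 3 of 4 small heat shock proteins (Hspb1, Hspb6 and Hspb8), both chaperonin genes, 1 of 12 ATF4-arm genes and 0 of 8 ER genes. The chaperonin genes Hspd1 and Hspe1 share a single site, the same 8 bases read on opposite strands. The windows of Hspa1a and Hspa1b are nearly identical, so their matches are not independent either. The ATF4 element was found in Atf3, Chac1, Trib3 and Asns, 4 of the 12 ATF4-arm genes, and in the ER gene Herpud1, against 4.51% of all genes. The heat shock and ATF4 elements are likewise known from genes such as these, so their shares are no independent results either. CCAAT boxes were common, in 24 of the 34 and in 41.1% of all genes.

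Sdf2l1 (ENSMUSG00000022769, chr16:17130138-17132383, minus strand, GRCm38) encodes a resident of the ER lumen that works with the HSP40 co-chaperone of Dnajb11 and with BiP. It had 2.50, 2.002, 3.10, 2.08 and 1.48 CPM in the 5 transgenic libraries, against 0.866, 0.678, 0.888, 0.781 and 0.939 CPM in the 5 wild-type libraries. Every transgenic library lay above every wild-type library, with the lowest transgenic value in library 5. The means were 2.23 ± 0.606 CPM in transgenic muscle and 0.830 ± 0.103 CPM in wild-type muscle (SD, n = 5 each). The log2 fold change was 1.41 ± 0.24 (SE; adjusted p = 0.00416 by edgeR), a fold of 2.66 with an unadjusted 95% interval of 1.87 to 3.79. The exact two-sided permutation p over samples was 0.00794, the smallest that 5 against 5 libraries allow.

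The gene is sparsely counted, and these values rest on 204 counts over the transgenic libraries (23 to 49 each) and 60 over the wild-type libraries (8 to 16 each). Leaving out any 1 library gave log2 fold changes from 1.27 to 1.52, with edgeR adjusted p from 0.00217 to 0.0206. Hepatocyte marker transcripts were highest in transgenic library 5, where Sdf2l1 was lowest among the transgenic libraries. With the mean hepatocyte marker level as a covariate the log2 fold change was 2.02 ± 0.33 (SE; adjusted p = 0.0200 by edgeR). That level was 3.29 to 6.69 log2 CPM in transgenic libraries and 1.53 to 2.30 in wild-type libraries, with no overlap. The fit therefore cannot separate liver transcripts from the group, and their part in this result was not tested. Leukocyte markers averaged 4.56, 4.75, 4.16, 4.09 and 3.50 log2 CPM in the transgenic libraries and 3.81, 3.94, 3.65, 3.17 and 3.20 in the wild-type libraries. They too were lowest among the transgenic libraries in library 5, and their part in this result was not tested. The authors' deposited table gives a log2 fold change of 1.42 with an adjusted p of 0.000272. Within 50 kb of Sdf2l1, the tested genes Ypel1, Ppil2, Ydjc and Ube2l3 did not pass the test, with log2 fold changes from 0.03 to 0.55 (edgeR adjusted p from 0.193 to 0.923). No annotated gene overlaps Sdf2l1. Its known partner and its paralogue, chosen after their values were seen, did not pass either. Dnajb11 had 22.0 ± 0.818 CPM in transgenic muscle and 22.6 ± 0.339 CPM in wild type (SD, n = 5 each; adjusted p = 0.850 by edgeR). Sdf2 had 17.9 ± 0.922 CPM in transgenic muscle and 16.5 ± 1.09 CPM in wild type (SD, n = 5 each; adjusted p = 0.568 by edgeR).

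The other 7 ER genes did not pass the test, with edgeR adjusted p from 0.541 to 0.965 and log2 fold changes from -0.08 to 0.19. Hspa5 (chr2:34771970-34777547, plus strand) encodes BiP, the HSP70 of the ER and a standard readout of its stress. It had 109, 95.2, 82.8, 113 and 111 CPM in the transgenic libraries, against 108, 110, 97.8, 96.5 and 93.3 CPM in the wild-type libraries. The groups overlapped throughout, with the lowest value in transgenic library 3. Its means were 102 ± 12.9 CPM in transgenic muscle and 101 ± 7.37 CPM in wild type (SD, n = 5 each). Its log2 fold change was 0.02 ± 0.11 (SE; adjusted p = 0.958 by edgeR), and the 95% interval of the fold ran from 0.857 to 1.19.

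Calr (chr8:84841850-84846934, minus strand) encodes calreticulin, the lectin chaperone that buffers ER calcium. It had 94.3, 80.4, 114, 92.6 and 87.4 CPM in the transgenic libraries, against 94.8, 80.05, 81.6, 87.3 and 78.2 CPM in the wild-type libraries. Only transgenic library 3 lay above the wild-type range, and the log2 fold change was 0.15 ± 0.11 (SE; adjusted p = 0.541 by edgeR). Hsp90b1, the HSP90 of the ER, had 70.96 ± 16.5 CPM in transgenic muscle and 73.4 ± 7.09 CPM in wild type (SD, n = 5 each). Its lowest value, 42.6 CPM, was in transgenic library 3. Xbp1, the transcription factor activated by IRE1, had 42.4 ± 4.61 CPM in transgenic muscle and 44.9 ± 4.36 CPM in wild type, and total counts do not show its splicing. Dnajb9, a target of spliced XBP1, had 31.0 ± 6.33 CPM in transgenic muscle and 31.5 ± 8.72 CPM in wild type. Herpud1, a component of ER-associated degradation, had 88.0 ± 25.4 CPM in transgenic muscle and 84.1 ± 10.7 CPM in wild type. Pdia4, a protein disulphide isomerase, had 14.7 ± 3.41 CPM in transgenic muscle and 12.9 ± 2.51 CPM in wild type (SD, n = 5 each for these genes).

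None of the 10 cytosolic chaperones tested was called, and their log2 fold changes ran from -0.26 to 0.32 with a median of -0.02. Intervals lay within 2-fold for 9 of the 10 and within 1.5-fold for 7. Hspa1a (chr17:34969190-34972156, minus strand) and Hspa1b, its near-identical neighbour, encode the stress-inducible HSP70 and are the usual indicator of a heat shock response. Hspa1a had 0.667, 0.419, 0.886, 1.04 and 1.35 CPM in the transgenic libraries, against 1.89, 0.932, 0.333, 0.325 and 0.650 CPM in the wild-type libraries. The highest and the lowest values were both in wild type. Its log2 fold change was 0.11 ± 0.47 (SE; adjusted p = 0.933 by edgeR), and its 95% interval ran from a fold of 0.534 to 2.19.

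Reads of Hspa1a and Hspa1b are uncertain because the copies are nearly the same, though the identity of their exons was not measured. Their 300-base promoter windows, which lie mostly before the start, are identical at 296 positions. Hspa1b had 4, 11, 14, 17 and 27 counts in the transgenic libraries, against 19, 8, 7, 5 and 7 in the wild-type libraries. Added together, the pair had 16 to 48 counts in transgenic libraries, 151 in all, and 10 to 43 in wild-type libraries, 101 in all.

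Hsp90ab1 (chr17:45567775-45573271, minus strand), the constitutive cytosolic HSP90, had 500, 403, 494, 536 and 443 CPM in the transgenic libraries, against 491, 589, 501, 545 and 569 CPM in the wild-type libraries. The lowest 2 values were transgenic and the highest 3 were wild type, with overlap between. Its means were 475 ± 52.4 CPM in transgenic muscle and 539 ± 42.3 CPM in wild type (SD, n = 5 each). On the log2 scale the fold change was -0.18 ± 0.11 (SE; adjusted p = 0.439 by edgeR; exact two-sided permutation p = 0.0714). Dnajb1 (chr8:83608193-83612653, plus strand), an HSP40 induced by heat shock, had 4.505, 6.52, 8.16, 6.81 and 6.31 CPM in the transgenic libraries, against 6.22, 4.91, 5.77, 4.42 and 4.48 CPM in the wild-type libraries. All transgenic libraries but library 1 lay above the wild-type range, with a log2 fold change of 0.32 ± 0.17 (SE; adjusted p = 0.347 by edgeR; exact two-sided permutation p = 0.0714).

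The constitutive HSP70, Hspa8, had 218 ± 25.9 CPM in transgenic muscle and 218 ± 22.5 CPM in wild type (SD, n = 5 each). Hsp90aa1, the inducible HSP90, had 20.6 ± 5.53 CPM in transgenic muscle and 21.7 ± 3.63 CPM in wild type. Hsph1, an HSP110 that exchanges nucleotide on HSP70, had 32.9 ± 8.22 CPM in transgenic muscle and 31.4 ± 6.25 CPM in wild type. Hspa4, of the same family, had 98.4 ± 11.0 CPM in transgenic muscle and 101 ± 5.32 CPM in wild type. Dnaja1, an HSP40, had 25.1 ± 6.27 CPM in transgenic muscle and 24.4 ± 2.41 CPM in wild type. Hspa1l, best known from testis, had 2.52 ± 0.691 CPM in transgenic muscle and 2.59 ± 0.613 CPM in wild type. Bag3, the co-chaperone that couples HSP70 to small heat shock proteins at the Z-disc, had 32.1, 33.0, 67.8, 41.9 and 38.7 CPM in the transgenic libraries, against 51.7, 58.9, 36.6, 45.0 and 63.9 CPM in the wild-type libraries. Transgenic library 3 held its highest value, and the other transgenic libraries lay below 4 of the 5 wild-type libraries (SD, n = 5 each for the means of these genes).

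The 5 small heat shock proteins all had positive log2 fold changes, from 0.07 to 0.63 with a median of 0.24, and none was called. Hspb6 (chr7:30552178-30555443, plus strand), which encodes HSP20, had 164, 228, 335, 232 and 317 CPM in the transgenic libraries, against 273, 124, 151, 177 and 142 CPM in the wild-type libraries. Wild-type library 1 lay within the upper part of the transgenic range and the other 4 wild-type libraries lay near or below its lower end. The log2 fold change was 0.56 ± 0.23 (SE; unadjusted p = 0.0318, adjusted p = 0.219 by edgeR; exact two-sided permutation p = 0.0873). Cryab (chr9:50751325-50756636, plus strand), the alpha B-crystallin that holds desmin and titin in shape, had 106, 149, 281, 225 and 225 CPM in the transgenic libraries, against 207, 81.1, 119, 144 and 85.3 CPM in the wild-type libraries. Within each group the libraries ranked in the same order as for Hspb6, with transgenic library 3 and wild-type library 1 at the top. The log2 fold change was 0.63 ± 0.29 (SE; unadjusted p = 0.0469, adjusted p = 0.269 by edgeR; exact two-sided permutation p = 0.111).

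Hspb7, a small heat shock protein of heart and muscle, had 105, 121, 178, 130 and 262 CPM in the transgenic libraries, against 268, 141, 74.8, 97.6 and 91.6 CPM in the wild-type libraries. Its highest values were in wild-type library 1 and transgenic library 5. Hspb1, which encodes HSP25 in the mouse, had 71.5 ± 21.1 CPM in transgenic muscle and 61.2 ± 12.5 CPM in wild type (SD, n = 5 each). Hspb8, the partner of Bag3, had 200 ± 54.1 CPM in transgenic muscle and 191 ± 25.6 CPM in wild type (SD, n = 5 each). Transgenic library 3 was the highest library for Hspb1, Hspb6, Hspb8 and Cryab.

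Slow fibre transcripts differed widely between libraries of a group. A list of 10 slow fibre genes, added after values had been seen, had a mean log2 CPM of 4.77, 4.46, 4.34, 5.12 and 6.25 in the transgenic libraries and 7.13, 4.72, 5.25, 3.43 and 3.78 in the wild-type libraries. It averaged 4.99 ± 0.77 in transgenic and 4.86 ± 1.46 in wild-type libraries (SD, n = 5 each). It was highest in wild-type library 1 and then in transgenic library 5, the libraries in which Hspb7 was highest. The mean log2 CPM of the 5 small heat shock proteins was 6.73, 7.03, 7.74, 7.29 and 7.65 in the transgenic libraries and 7.47, 6.84, 6.69, 6.97 and 6.72 in the wild-type libraries. With the slow fibre level as a covariate the log2 fold change of Hspb6 was 0.56 ± 0.21 and that of Cryab 0.64 ± 0.27 (SE; adjusted p = 0.171 and 0.235 by edgeR). Without wild-type library 1 the median of the 5 genes was 0.62, against 0.24 with all libraries, and none was called. The part of fibre type in these values was not tested further.

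The subunits of the mitochondrial chaperonin lie head to head on chromosome 1 and did not pass the test. Hspd1 (chr1:55077835-55088243, minus strand), which encodes the HSP60 barrel, had 91.7, 89.8, 60.1, 104 and 101 CPM in the transgenic libraries, against 79.2, 76.0, 79.4, 93.8 and 72.6 CPM in the wild-type libraries. Transgenic library 3 was the lowest of all and transgenic libraries 4 and 5 the highest. Its log2 fold change was 0.15 ± 0.14 (SE; adjusted p = 0.643 by edgeR). Hspe1 (chr1:55088132-55091307, plus strand), the HSP10 lid, had 24.9, 18.8, 26.3, 21.0 and 24.3 CPM in the transgenic libraries, against 22.6, 24.3, 21.6, 21.9 and 15.7 CPM in the wild-type libraries. Its log2 fold change was 0.12 ± 0.13 (SE; adjusted p = 0.711 by edgeR). Exons of the pair overlap in the annotation, and the strand used in counting is not given in the sources used here. In all, 8 of the 38 genes have exons that overlap another tested gene, among them Hspb6, Cryab and Ddit3.

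None of the 12 genes of the ATF4 arm was called, 6 being positive and 6 negative, with log2 fold changes from -0.26 to 0.85 and a median of 0.0007. Atf4 (chr15:80255184-80257541, plus strand) is regulated mostly through translation, which RNA counts do not show. It had 102, 89.3, 127, 105 and 110 CPM in the transgenic libraries, against 104, 138, 107, 89.2 and 114 CPM in the wild-type libraries. The groups overlapped throughout, and the log2 fold change was -0.05 ± 0.13 (SE; adjusted p = 0.889 by edgeR). Ddit3 (chr10:127290774-127296288, plus strand), which encodes CHOP, the factor tied to death under lasting ER stress, had 3.84, 4.84, 4.18, 3.40 and 3.99 CPM in the transgenic libraries, against 6.14, 3.05, 4.05, 3.77 and 4.69 CPM in the wild-type libraries. All transgenic values lay inside the wild-type range, and the log2 fold change was -0.10 ± 0.19 (SE; adjusted p = 0.850 by edgeR).

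Atf3 (chr1:191170296-191218039, minus strand), an immediate stress-response transcription factor, had 2.17, 2.096, 4.11, 3.54 and 8.17 CPM in the transgenic libraries, against 3.86, 1.78, 1.89, 2.08 and 1.52 CPM in the wild-type libraries. Transgenic library 5 stood above all others, and wild-type library 1 stood above the other wild-type libraries. The log2 fold change was 0.85 ± 0.38 (SE; unadjusted p = 0.0453, adjusted p = 0.265 by edgeR; exact two-sided permutation p = 0.0794). It was 0.42 without transgenic library 5 and -0.31 with the hepatocyte marker level as a covariate, and hepatocyte markers were highest in transgenic library 5. That covariate did not overlap between the groups, so the fit with it cannot separate liver transcripts from the group. Mthfd2 (chr6:83305691-83325908, minus strand), a mitochondrial enzyme of one-carbon metabolism, had 1.45, 1.68, 2.53, 4.49 and 1.93 CPM in the transgenic libraries, against 1.81, 1.101, 2.053, 1.30 and 2.17 CPM in the wild-type libraries. Transgenic library 4 was the highest, and the log2 fold change was 0.51 ± 0.32 (SE; adjusted p = 0.444 by edgeR). It was 0.16 without transgenic library 4 and 0.048 with the share of Lars2, Gm15564 and Gm15662 as a covariate.

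The libraries of the groups overlapped for each of the other 8 ATF4-arm genes. Asns, asparagine synthetase, had 4.67, 2.84, 1.08, 1.56 and 1.93 CPM in the transgenic libraries, against 3.86, 2.80, 2.053, 1.497 and 1.23 CPM in the wild-type libraries. Psat1 and Phgdh, enzymes of serine synthesis, had 3.23 ± 1.83 and 2.08 ± 0.977 CPM in transgenic muscle and 3.45 ± 1.27 and 1.91 ± 0.623 CPM in wild type (SD, n = 5 each). Both had their lowest value in transgenic library 5, at 1.54 and 0.836 CPM. Chac1, which degrades glutathione, had 49.1 ± 16.9 CPM in transgenic muscle and 57.2 ± 13.1 CPM in wild type. Trib3, a pseudokinase induced by CHOP, had 0.695 ± 0.277 CPM in transgenic muscle and 0.852 ± 0.391 CPM in wild type. Shmt2, the mitochondrial serine hydroxymethyltransferase, had 8.71 ± 3.03 CPM in transgenic muscle and 8.45 ± 1.94 CPM in wild type. Sesn2, an inhibitor of mTORC1 signalling, had 2.29 ± 0.493 CPM in transgenic muscle and 2.37 ± 0.945 CPM in wild type. Atf5, a factor of the mitochondrial unfolded protein response, had 12.9 ± 3.88 CPM in transgenic muscle and 11.0 ± 1.12 CPM in wild type (SD, n = 5 each for these genes).

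Set side by side, the group means of the cytosolic chaperones and of the ATF4 arm differed by less than the SD between libraries, and that of the ER genes by more through Sdf2l1. The mean log2 CPM of the 10 cytosolic chaperones was 4.65 ± 0.18 in transgenic libraries and 4.66 ± 0.16 in wild-type libraries (SD, n = 5 each). That of the 8 ER genes was 5.14 ± 0.11 in transgenic libraries and 4.96 ± 0.09 in wild-type libraries, and without Sdf2l1 the difference was 0.03, against 0.18 with it. The ATF4 arm averaged 2.40 ± 0.14 in transgenic libraries and 2.35 ± 0.27 in wild-type libraries. The small heat shock proteins averaged 7.29 ± 0.42 in transgenic libraries and 6.94 ± 0.32 in wild-type libraries, and the chaperonin 5.49 ± 0.14 in transgenic and 5.36 ± 0.16 in wild-type libraries (SD, n = 5 each). No difference between these groups of genes was tested. Precision differed as well, since 7 of the 8 ER genes and 7 of the 10 cytosolic chaperones had a 95% interval within 1.5-fold, against 3 of 12 in the ATF4 arm and 1 of 5 small heat shock proteins.

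**Figure D2:**
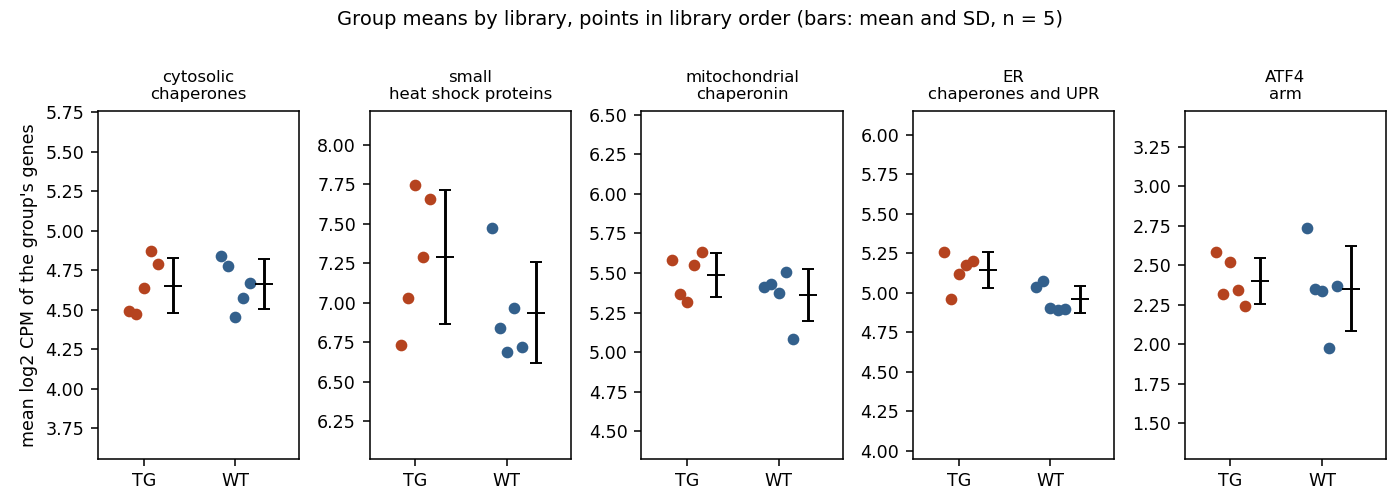
Mean log2 CPM of the tested genes of each role group in each library, transgenic libraries left of wild-type libraries, with the group mean and SD (n = 5 each). The cytosolic chaperones average 4.65 in transgenic and 4.66 in wild-type libraries, and the small heat shock proteins spread from 6.73 to 7.74 in transgenic and from 6.69 to 7.47 in wild-type libraries.

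Single libraries accounted for many of the extreme values. Transgenic library 3 was the highest of the 10 for 13 of the 37 genes and the lowest for 8. It was highest for Calr, Herpud1, Sdf2l1, Dnajb1, Hspa8 and Bag3 and for 4 small heat shock proteins, and lowest for Hspa5, Hsp90b1, Dnajb9, Hsp90aa1, Dnaja1, Hspa4, Hspd1 and Asns. Calr on the one side and Hspa5 and Hsp90b1 on the other, all ER chaperones, thus lay at opposite ends in the same library. Beyond these genes, transgenic library 3 also differed most from the other transgenic libraries. Its chi-square over the degrees of freedom was 76.2 to 105 against each, and 18.9 to 51.6 among the others. How often it held the extreme over all genes tested was not counted. Wild-type library 1 was the highest for 9 genes and the lowest for 0. Transgenic library 5 was the lowest for 4 ATF4-arm genes, Trib3, Chac1, Psat1 and Phgdh. The median SD of log2 CPM over the 37 genes was 0.40 in the transgenic group and 0.29 in wild type, against 0.28 in the transgenic group and 0.22 in wild type over all genes tested.

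**Figure D3:**
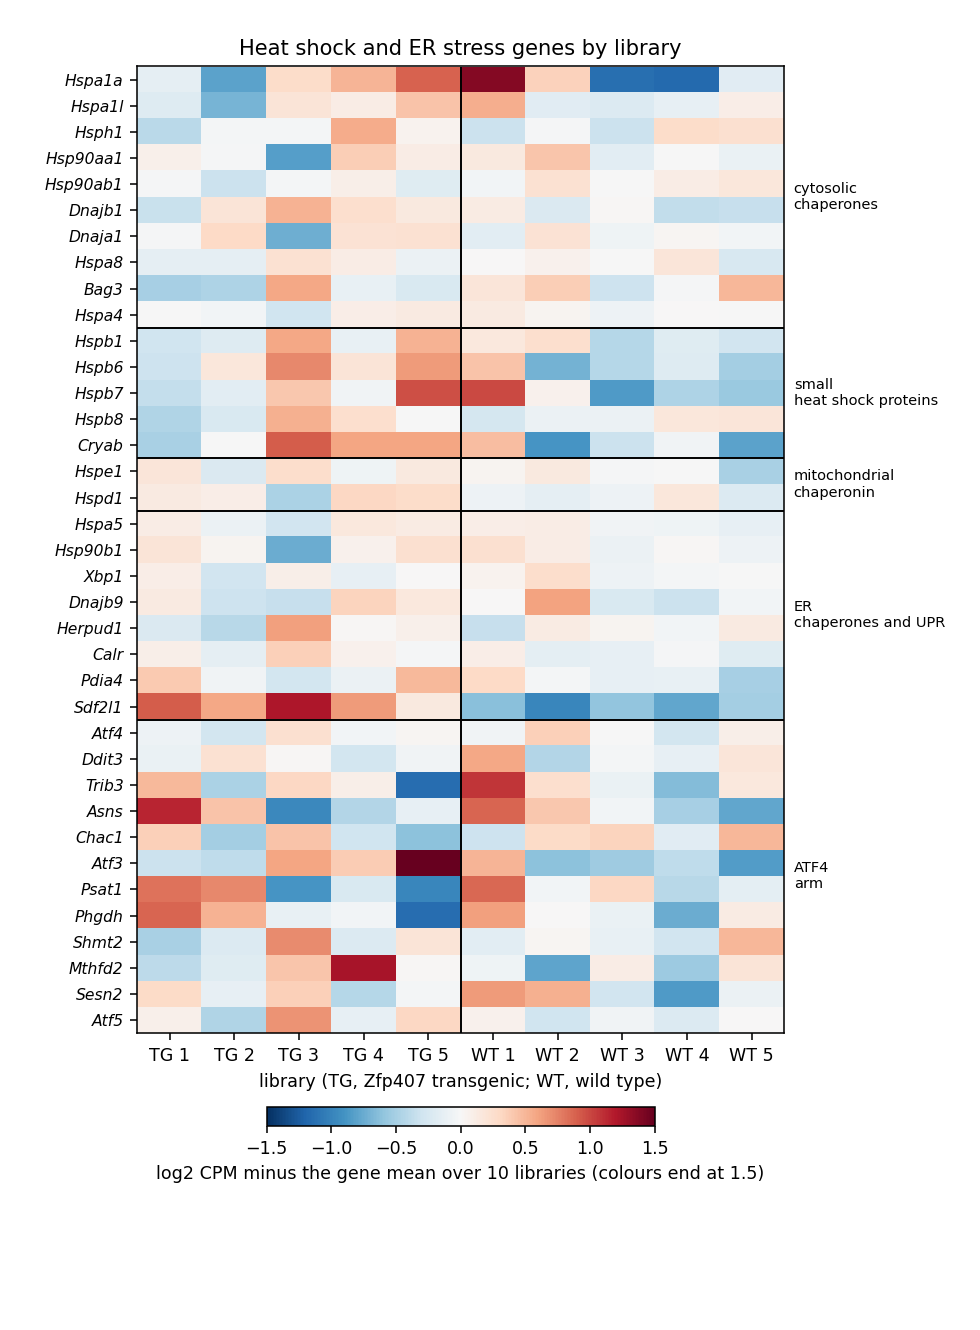
Log2 CPM of the 37 genes tested in each of the 10 libraries, transgenic libraries left and wild-type libraries right, as the difference from each gene's mean over the 10 libraries, with the colours ending at 1.5 in both directions. Sdf2l1 is the row with all transgenic libraries above all wild-type libraries, and transgenic library 3 holds the highest value of 13 rows and the lowest of 8.

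Between genes, levels were compared per kilobase of exon, with the exons of all annotated transcripts of a gene merged. Hsp90ab1 was the most abundant, at 158 ± 17.5 CPM per kb in transgenic muscle and 180 ± 14.1 CPM per kb in wild type (SD, n = 5 each). The next in wild-type order were Hspb8, Cryab, Hspb6 and Hspb1, at 103, 133, 111 and 69.4 CPM per kb in transgenic muscle and 98.0, 86.1, 75.4 and 59.4 CPM per kb in wild type. In wild type their SDs were 13.1, 34.7, 25.6 and 12.2 CPM per kb. There Hspb8 and Cryab, and Cryab and Hspb6, differed by less than either SD. Hspb6 and Hspb1 differed by more than the SD of Hspb1 but by less than that of Hspb6. Hspa8 at 50.7, Hspb7 at 48.6 and Atf4 at 46.9 CPM per kb in wild type were close to each other. The ER chaperones Calr and Hspa5 stood at 32.5 and 24.2 CPM per kb in transgenic muscle and 29.3 and 23.9 CPM per kb in wild type. Sdf2l1 ranked 33 of 37 in wild type, at 2.02 CPM per kb in transgenic muscle and 0.749 CPM per kb in wild type. The lowest was the inducible Hspa1a, at 0.294 CPM per kb in transgenic muscle and 0.278 CPM per kb in wild type. That level is uncertain because reads of Hspa1a and Hspa1b are hard to tell apart.

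**Figure D4:**
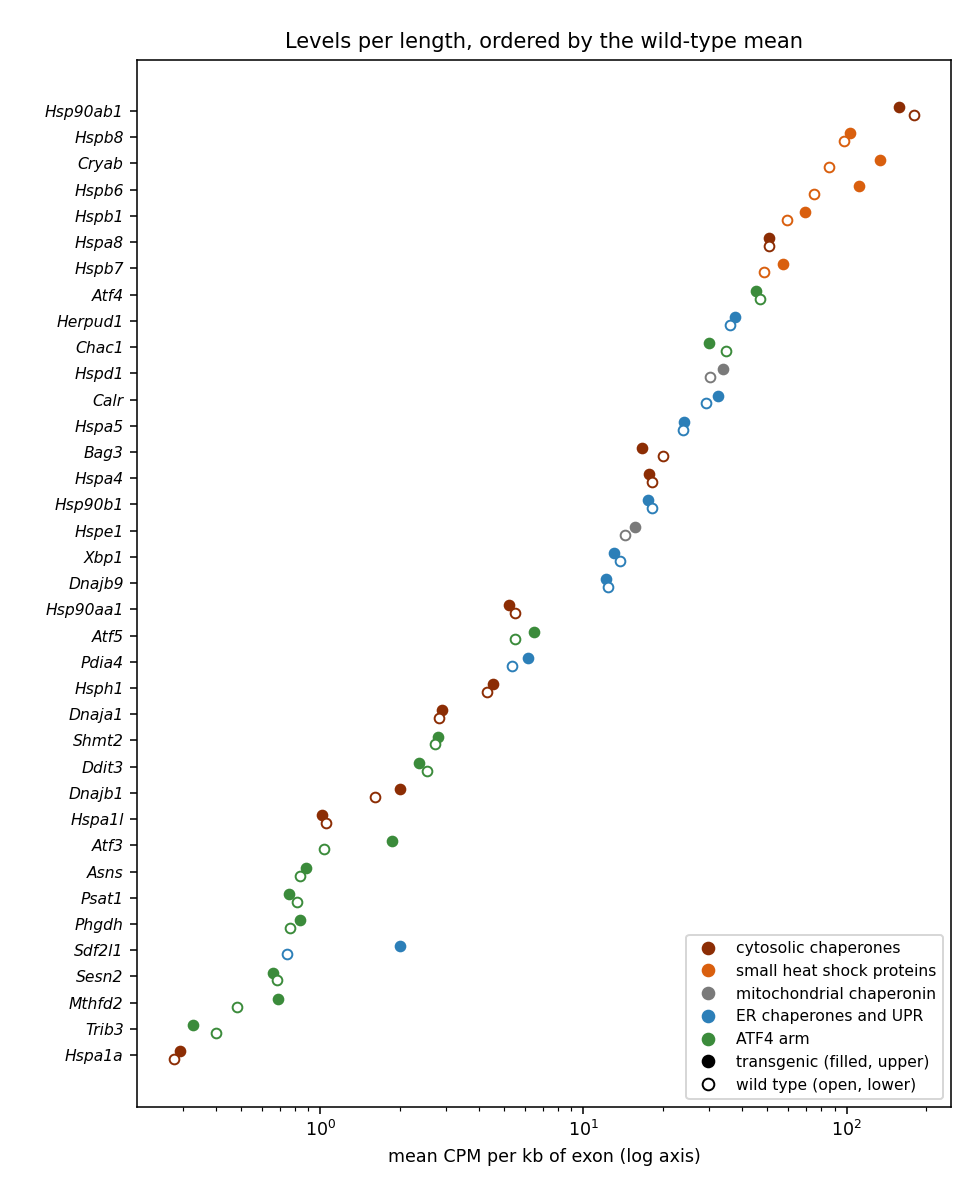
Mean level of the 37 genes tested in CPM per kilobase of exon on a log axis, ordered by the wild-type level, with filled points for the transgenic group and open points for wild type (n = 5 each). Levels run from Hsp90ab1, at 158 in transgenic and 180 in wild-type muscle, to Hspa1a, at 0.294 in transgenic and 0.278 in wild-type muscle, and the pair of points is furthest apart for Sdf2l1. The level of Hspa1a is uncertain because its reads are hard to tell from those of Hspa1b.

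The wider pathways were read from 12 lists of other chaperones, co-chaperones, sensors and targets, with 163 genes, of which 153 were tested. In them 1 gene rose and 4 fell, which is 3.27% against 5.33% of all genes tested, and the median log2 fold change was -0.03. By direction, 4.28% of all genes tested were called higher and 1.05% lower. An unadjusted p under 0.05 was reached by 27 of the 153, against 18.1% of all genes tested. No gene was called among 21 co-chaperones, 3 further small heat shock proteins, 8 subunits of the CCT chaperonin, 15 genes of ER-associated degradation, 6 kinases and phosphatases of eIF2 alpha, 24 ATF4-responsive amino acid genes and 12 further ATF4-responsive genes.

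Of 9 UPR sensors and related factors tested, Atf6 (chr1:170704674-170867771, minus strand) fell, the sensor that is cut in the Golgi to release a transcription factor. It had 41.2, 38.5, 40.1, 39.6 and 46.7 CPM in the transgenic libraries, against 50.01, 60.1, 50.3, 51.0 and 53.7 CPM in the wild-type libraries. The groups did not overlap, and the log2 fold change was -0.36 ± 0.10 (SE; adjusted p = 0.0490 by edgeR). The call was lost in 14 of 21 other settings, among them without transgenic library 1, 2 or 4 or any 1 wild-type library, with adjusted p between 0.0531 and 0.117 by edgeR. Of 25 other ER chaperones and foldases, Calr3 (chr8:72424176-72443870, minus strand) fell, a calreticulin known from testis. It had 0.667, 1.16, 0.886, 1.09 and 0.708 CPM in the transgenic libraries, against 2.84, 2.202, 2.61, 3.97 and 2.67 CPM in the wild-type libraries (log2 fold change -1.64 ± 0.23, SE; adjusted p = 0.00146 by edgeR). The groups did not overlap.

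Of 8 mitochondrial chaperones and proteases, Clpx (chr9:65294260-65330658, plus strand) fell, the unfoldase of the ClpXP protease in the matrix. It had 80.8, 68.5, 54.2, 73.6 and 84.9 CPM in the transgenic libraries, against 109, 118, 113, 93.5 and 104 CPM in the wild-type libraries (log2 fold change -0.57 ± 0.13, SE; adjusted p = 0.0182 by edgeR). Of 5 heat shock factors and related genes, Hsbp1l1 on chromosome 18, a relative of a protein that binds heat shock factor 1, fell. It had 0.834, 1.02, 0.253, 0.614 and 1.03 CPM in the transgenic libraries, against 2.76, 2.54, 1.44, 3.25 and 1.59 CPM in the wild-type libraries (log2 fold change -1.60 ± 0.34, SE; adjusted p = 0.0149 by edgeR). In both genes every transgenic library lay below every wild-type library.

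Of 17 other cytosolic HSP70, HSP110 and HSP40 genes, Hspa4l (chr3:40744495-40796103, plus strand) rose, an HSP110 related to Hspa4. It had 13.2, 15.2, 10.4, 19.6 and 14.8 CPM in the transgenic libraries, against 10.6, 8.72, 7.94, 11.0 and 7.94 CPM in the wild-type libraries (log2 fold change 0.67 ± 0.17, SE; adjusted p = 0.0329 by edgeR). The groups overlapped at transgenic library 3, and the call was lost in 11 of 21 other settings. These include leaving out transgenic library 2, 4 or 5 or wild-type library 1, 2, 3 or 5, with adjusted p between 0.0563 and 0.108 by edgeR. With the hepatocyte marker level as a covariate none of these 5 genes passed, with edgeR adjusted p of 0.233 for Atf6, 0.165 for Calr3, 0.154 for Clpx, 0.196 for Hsbp1l1 and 0.570 for Hspa4l. Their log2 fold changes in that fit were -0.52, -1.60, -0.79, -2.07 and 0.41. With the share of Lars2, Gm15564 and Gm15662 as a covariate Calr3 passed and the other 4 did not (edgeR adjusted p from 0.119 to 0.232). Since the hepatocyte marker level did not overlap between the groups, the fit with it cannot separate liver transcripts from the group. The part of liver transcripts in these results was not tested further.

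**Figure D5:**
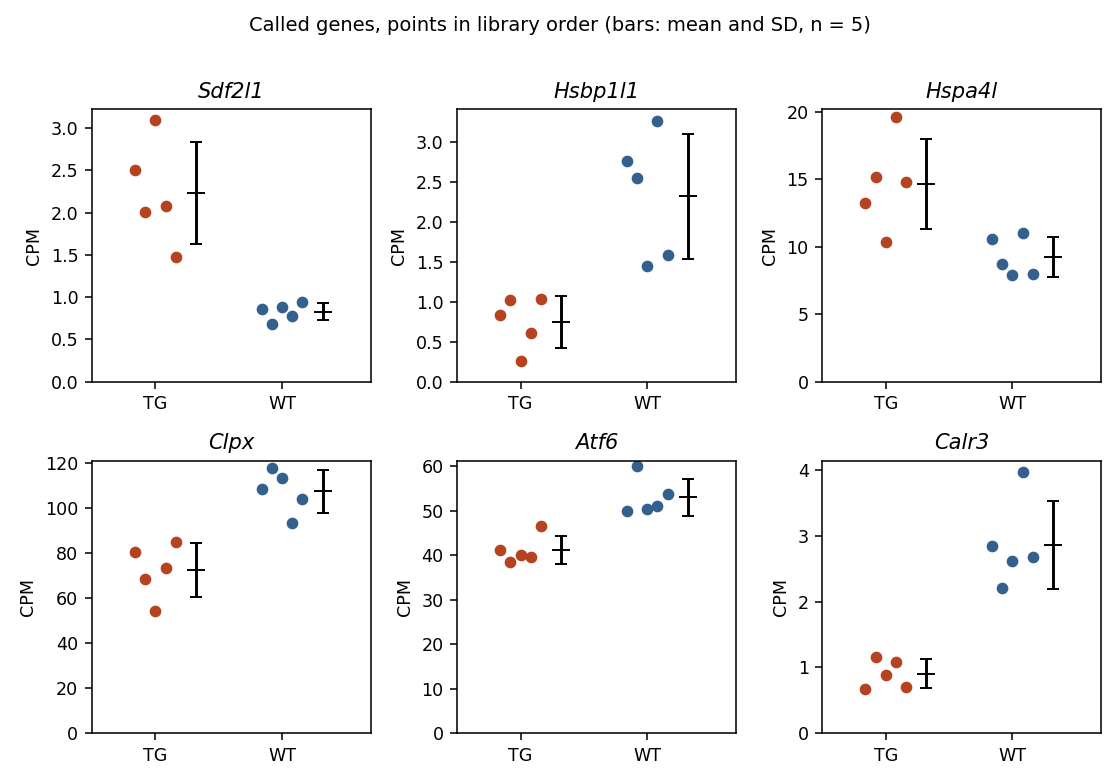
CPM in each library of Sdf2l1 and of the 5 genes called in the wider lists, transgenic libraries left of wild-type libraries, with the mean and SD (n = 5 each). The transgenic libraries lie above all wild-type libraries for Sdf2l1 and below them for Hsbp1l1, Clpx, Atf6 and Calr3, while those of Hspa4l overlap.

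In the lists without a call, the gene with the smallest p was in each case short of the threshold. Cth, which makes cysteine from cystathionine, had 9.71 ± 9.42 CPM in transgenic muscle and 2.76 ± 0.594 CPM in wild type (SD, n = 5 each; log2 fold change 1.82 ± 0.49, SE; adjusted p = 0.0506 by edgeR). Its SD in the transgenic group was close to its mean. The others were Bag2 among the co-chaperones at -0.44, Sesn3 among the ATF4-responsive regulators at 0.38, Herpud2 in ER-associated degradation at -0.38 and Cct2 of the CCT chaperonin at -0.20. Their edgeR adjusted p were 0.0811, 0.0948, 0.116 and 0.239. Eif2ak4, the kinase GCN2, was at -0.19 and the small heat shock protein Hspb3 at 0.20, with edgeR adjusted p of 0.431 and 0.533. As with Cth, the hepatocyte markers had an SD close to their mean in the transgenic group, at 0.233% ± 0.264% of counts (n = 5). The part of liver transcripts in Cth was not tested. The mean log2 CPM of the 24 ATF4-responsive amino acid genes, Cth among them, was 3.81 to 4.10 in transgenic libraries. In wild-type libraries it was 3.63 to 3.78, and the median log2 fold change was 0.05.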

How the data were processed

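The authors' tools, per the submitters' processing notes, include HTSeq 0.6.1, DESeq2 1.10, TopHat2 2.1, SAMtools 1.2 and Bowtie2 2.2.6, on the build GRCm38.p4. The deposited table holds raw counts per gene for 10 libraries. How reads were counted, and on which strand, is not given in the sources used here. Per the file headers it also gives the authors' mean signal, log2 fold change with its error, Wald score and p-value. Of these, the fold change and adjusted p-value were used. As deposited, 23 gene symbols read as dates.

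The 2 groups were compared without covariates by the quasi-likelihood test of edgeR 4.0.16 in R 4.3.3, after filterByExpr and TMM scaling, and p-values were adjusted after Benjamini and Hochberg over the 13338 genes kept. Log2 CPM used a prior count of 2. Intervals are 95%, unadjusted, from the fit. DESeq2 1.42.0, other size factors and filters, covariates, the authors' table and each library left out were the alternatives. The method was tested on simulated data with 50 genes changed by each fold. There edgeR called 24% of the 1.5-fold, 68% of the 2-fold and 98% of the 4-fold changes, so small changes were often missed. The changed genes were drawn at random from all genes tested, so these rates are not specific to the listed genes. By their median SD, the listed genes varied more between libraries than all genes tested. Coordinates are from GENCODE M21 on GRCm38, matched by gene ID.

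The genes and lists were chosen with earlier results of these data known, and the slow fibre list and covariate after values were seen. Genes given in full were those called, the 2 with the smallest p and the most abundant of each role group, and Hspa1a, Hspa1b, Ddit3 and Atf4; of each wider list, the called genes or else the 1 with the smallest p. The labels number the samples separately without stating that each is another mouse, so p-values measure the spread between these samples, which may be technical. In each of 20 within-group pairs the counts differed by more than sampling noise (lowest chi-square over its degrees of freedom 17.5).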

Additional observations from a re-analysis of the deposited data

Results flagged for a closer look

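Of 86 sets of 5 libraries examined, from 43 genes in each group, 4 held a library far from the other 4 of its group, where chance gives about 1 in 20. Bag3 was at 67.8 CPM in transgenic library 3, against 32.1 to 41.9 CPM in the other transgenic libraries. Hsp90b1 was at 42.6 CPM in the same library, against 73.1 to 83.6 CPM in the other transgenic libraries. Dnajb9 was at 46.4 CPM in wild-type library 2, against 24.5 to 30.8 CPM in the other wild-type libraries. Atf3 was at 3.86 CPM in wild-type library 1, against 1.52 to 2.08 CPM in the other wild-type libraries. Transgenic library 3 also held the highest share of skeletal muscle fibre markers, 11.5% of its counts, and the part of this in its values was not tested.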

How the results depend on the processing

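Sdf2l1 was the 1 listed gene called in each of 21 alternatives, with log2 fold changes from 1.27 to 2.02 and adjusted p from 0.000202 to 0.0371. No paired analysis was possible because the column numbers that the groups share are tied by no label to an animal, litter, batch or day. Over all genes, 69 were called with the hepatocyte covariate, 472 with the share of Lars2, Gm15564 and Gm15662 as a covariate, 1158 in the authors' deposited table, and 450 (without wild-type library 3) to 1116 (without transgenic library 3) with a library left out. In the wider lists, 10 genes were called by DESeq2, 0 with the hepatocyte covariate, 2 with the share covariate, 2 without transgenic libraries 4 and 5, 9 in the authors' deposited table and 3 to 12 with a library left out (12 without transgenic library 3, and 3 without transgenic library 4 or wild-type library 1, 2, 3 or 5). The median log2 fold change of the cytosolic chaperones was -0.27 with the hepatocyte covariate and -0.17 without transgenic libraries 4 and 5. That of the ATF4 arm was 0.31 with the hepatocyte covariate. That of the small heat shock proteins was 0.91 with the share covariate and 0.11 to 0.62 with a library left out. Over all alternatives it fell as low as 0.029. Signs turned only for genes that were not called. Hspa5 was at -0.13 with the hepatocyte covariate, -0.077 without transgenic libraries 4 and 5, -0.012 without Lars2, Gm15564 and Gm15662, and -0.030 to 0.082 with a library left out. Hspa1a was at -0.53 with the hepatocyte covariate, -0.30 without transgenic libraries 4 and 5, and -0.14 to 0.64 with a library left out. With the hepatocyte covariate Hspd1 was at -0.16 and Atf3 at -0.31. Atf4 was at 0.065 with the share covariate, 0.037 without transgenic libraries 1 and 2, and -0.15 to 0.0077 with a library left out. Ddit3 was at 0.036 with the share covariate and -0.23 to 0.017 with a library left out. The cause of these shifts was not tested. The hepatocyte marker level did not overlap between the groups, so fits with it as a covariate cannot separate liver transcripts from the group. Hspa1a gave no value under the filter on a mean of at least 20 counts. Depth limits Hspa1b, Trib3, Hspa1a and Sdf2l1 most, at 4 to 49 counts per library. For Hspa1a and Hspa1b the nearly identical copies add to the uncertainty.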
